A study of Homo sapiens with 4 samples.

Results

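Olfactory receptor genes are expressed in sensory neurons of the nose and lie in clusters on many human chromosomes. Each such neuron is known to express a single receptor allele, while in other cell types the clusters are held in compact, late-replicating chromatin that is commonly used as a negative region in ChIP-seq. The regions described here are 3 windows of hg19 that hold such genes, defined by coordinates, with no measured value in the rule: chr1:247600001-249200000, called the chromosome 1 cluster, chr11:55000001-56600000, called the proximal chromosome 11 cluster, and chr11:123600001-124500000, called the distal chromosome 11 cluster. Cut into 1 kb tiles they gave 1600, 1600 and 900 tiles, or 4100 of the 3093772 tiles of 24 chromosomes. Of these, 1171, 1333 and 845 tiles (3349 in all) held at least 1 read in at least 1 library, against 2598309 tiles in the genome.

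The libraries were made by chromatin immunoprecipitation and sequencing from formaldehyde-fixed wild-type K562 cells, an established human leukaemia line with erythroid features and a rearranged, partly amplified genome. The 2 DPF2 libraries were made with an antibody against DPF2, which belongs to the BAF family of nucleosome remodellers and reads acylated lysine 14 of histone H3 through a pair of PHD fingers. The 2 H3K14cr libraries used an antibody against histone H3 crotonylated at lysine 14, an acylation found at active promoters and enhancers. All groups shared the same line and culture medium and differ by antibody, and no control library was analysed here.

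DPF2 libraries had 7787444 and 13317496 reads in total, against totals of 10880366 and 17369133 in the H3K14cr libraries, so a mean 1 kb tile of the genome held between 2.52 and 5.61 reads. Within each cluster, the 2 libraries of an antibody agreed within sampling noise in how their reads were distributed over tiles. This measure takes each library's level in the cluster as given and does not compare levels. Chi-square per degree of freedom over 1 kb tiles was 0.981, 0.969 and 1.03 within DPF2 and 1.01, 0.930 and 0.983 within H3K14cr, in the chromosome 1, proximal and distal chromosome 11 clusters. Each pair was therefore counted as 1 sample (n = 1 per antibody), and its values are printed per library to show the technical spread. Intervals below are 95% intervals for counting error only. A permutation test over these libraries could not give a p below 0.333, so levels and spreads carry no test.

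Promoter sequences show what kind of genes the windows hold. No annotation of hg19 was used here, so genes were not placed on tiles. Instead, each window was matched by hand to a run of RefSeq genes in the order of GRCh38.p14, named by its first and last gene. The chromosome 1 run, NLRP3 to PGBD2, held 43 receptor genes and 8 other protein-coding genes. The proximal run, TRIM48 to OR9G4, held 45 and 2, and the distal run, ZNF202 to TBRG1, held 22 and 5. In RefSeq promoters of 300 bases, 250 before and 50 after the start, receptor genes had a median of 2 CpG dinucleotides on chromosome 1 (36 genes with a sequence) and 1 in the proximal run (42 genes), against 14 over all 35116 promoters. The motif searched was CG, which reads the same on both strands. At least 10 CpG were found in 1 receptor promoter on chromosome 1, OR2L13 with 24, and in 0 in the proximal run, against 56.4% of all promoters. In the distal run only 16 of 22 receptor genes had a sequence, so the same summary is void there. Other protein-coding genes of the runs differed among themselves. The zinc finger genes ZNF692, ZNF202 and ZNF672 had 32, 29 and 26 CpG, TBRG1 had 21, TRIM58, a ubiquitin ligase of maturing red cells, had 20, and SH3BP5L had 16. NLRP3, an inflammasome sensor, had 5 CpG, PANX3, a channel protein, had 4, GCSAML and TMEM225 had 2 each, and LYPD8, TRIM48 and TRIM51 had 1 each.

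The 4 promoters below show receptor genes with few CpG beside genes of the same chromosomes with many. OR11L1 and ZNF692 come from the chromosome 1 run, OR5T2 from the proximal and ZNF202 from the distal run. Both other protein-coding genes of the proximal run had 1 CpG, like OR5T2, so no such contrast was seen there. OR11L1 (chr1:247841847-247842146, minus strand) and OR5T2 (chr11:56234206-56234505, minus strand) are receptor genes at the middle of their run by CpG count, with 2 and 1 CpG. ZNF692 (chr1:248859036-248859335, minus strand) and ZNF202 (chr11:123741611-123741910, minus strand) encode zinc finger proteins and have the most CpG among the other protein-coding genes of their runs. Positions of these 4 are on GRCh38.p14 from RefSeq and cannot be set beside the hg19 tiles. Capitals mark each CpG, and sequences run 5′ to 3′ on the gene's strand.
OR11L1: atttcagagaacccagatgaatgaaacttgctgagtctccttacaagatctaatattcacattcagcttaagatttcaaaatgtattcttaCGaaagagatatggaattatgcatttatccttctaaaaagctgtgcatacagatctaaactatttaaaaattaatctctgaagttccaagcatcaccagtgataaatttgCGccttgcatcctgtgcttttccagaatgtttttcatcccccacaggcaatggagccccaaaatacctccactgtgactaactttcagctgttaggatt
OR5T2: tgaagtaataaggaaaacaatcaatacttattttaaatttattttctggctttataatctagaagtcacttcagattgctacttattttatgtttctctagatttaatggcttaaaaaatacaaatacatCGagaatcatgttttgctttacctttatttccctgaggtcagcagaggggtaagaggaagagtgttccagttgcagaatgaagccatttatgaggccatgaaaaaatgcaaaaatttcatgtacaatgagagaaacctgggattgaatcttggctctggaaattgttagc
ZNF692: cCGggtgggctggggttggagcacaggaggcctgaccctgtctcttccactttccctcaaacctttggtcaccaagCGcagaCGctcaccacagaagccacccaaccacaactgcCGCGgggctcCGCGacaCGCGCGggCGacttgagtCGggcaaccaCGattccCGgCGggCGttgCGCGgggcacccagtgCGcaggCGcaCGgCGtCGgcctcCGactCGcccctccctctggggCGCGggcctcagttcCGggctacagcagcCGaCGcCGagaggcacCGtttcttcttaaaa
ZNF202: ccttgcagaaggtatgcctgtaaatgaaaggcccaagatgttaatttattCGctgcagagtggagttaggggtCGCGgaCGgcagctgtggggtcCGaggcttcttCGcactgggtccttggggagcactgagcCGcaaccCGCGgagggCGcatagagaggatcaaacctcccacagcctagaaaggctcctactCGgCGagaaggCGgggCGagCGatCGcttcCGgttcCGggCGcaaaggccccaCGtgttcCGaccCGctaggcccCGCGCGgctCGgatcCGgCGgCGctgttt
In the RefSeq order, SH3BP5L, ZNF672, ZNF692 and PGBD2 follow the last receptor gene of the chromosome 1 run, OR14I1, and ZNF202 precedes the first receptor gene of the distal run, OR6X1. PANX3 and TBRG1 follow the last receptor gene of the distal run, OR8A1. Other protein-coding genes also lie between receptor genes: GCSAML and TRIM58 in the chromosome 1 run, TRIM51 in the proximal run, and TMEM225 and VWA5A in the distal run. The runs are therefore not made of receptor genes alone, at their ends or inside. That the receptor genes are silent in these cells is background, since no RNA was measured in the libraries used.

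The proximal chromosome 11 cluster had the lowest read level, and the distal one lay close to the genome mean. Levels are given in CPM per kb, that is reads scaled to the library's total, against a genome mean of 0.323 CPM per kb in every library. In the proximal chromosome 11 cluster the level was 0.126 (interval 0.119 to 0.132) and 0.133 (0.128 to 0.138) CPM per kb in the DPF2 libraries, and 0.106 (0.101 to 0.111) and 0.102 (0.0985 to 0.106) in the H3K14cr libraries. As the mean of an antibody's libraries, that was 0.4005 of the genome mean for DPF2 and 0.323 for H3K14cr. Every DPF2 value lay above every H3K14cr value, and the intervals did not overlap.

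In the chromosome 1 cluster the level was 0.237 (0.229 to 0.246) and 0.239 (0.232 to 0.246) CPM per kb in the DPF2 libraries, and 0.241 (0.234 to 0.248) and 0.239 (0.233 to 0.245) in the H3K14cr libraries. The antibodies overlapped there, at 0.737 of the genome mean for DPF2 and 0.742 for H3K14cr. In the distal chromosome 11 cluster the DPF2 libraries had 0.289 (0.277 to 0.302) and 0.311 (0.301 to 0.321) CPM per kb and the H3K14cr libraries 0.294 (0.284 to 0.305) and 0.290 (0.282 to 0.299), again overlapping, at 0.929 and 0.904 of the genome mean. Over all tiles, with or without a read, the order of the clusters was the same in all 4 libraries. Neighbours in that order did not overlap in their intervals.

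Part of the chromosome 1 value came from tiles without any read and part from 1 end of the window. Over tiles with a read, the level relative to such tiles of the genome was 0.846 for DPF2 and 0.851 for H3K14cr in the chromosome 1 cluster, 0.404 and 0.325 in the proximal cluster, and 0.831 and 0.809 in the distal cluster. On that measure the chromosome 1 cluster stood above the distal one, except in DPF2 replicate 2, at 0.848 against 0.861. The order of these clusters thus depended on tiles without a read. Without its last 100 kb, an alternative chosen after seeing the data, the chromosome 1 cluster stood at 0.556 and 0.572 of the genome mean in the DPF2 libraries and at 0.524 and 0.526 in the H3K14cr libraries. Over tiles with a read all 3 clusters stayed below the genome mean for both antibodies, and the chromosome 1 cluster did so also without its last 100 kb.

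The regions around the clusters had other levels. The 500 kb below the proximal chromosome 11 cluster, on the side of the centromere, had 0.0108 and 0.0102 CPM per kb in the DPF2 libraries, against 0.0118 and 0.0104 in the H3K14cr libraries, with reads in 128 of 500 tiles. The 500 kb above it had 0.413 and 0.415 CPM per kb in the DPF2 libraries, against 0.394 and 0.379 in the H3K14cr libraries. Flanks of the distal cluster lay between 0.423 and 0.584 CPM per kb, and the flank below the chromosome 1 cluster between 0.481 and 0.499. Apart from the flank at the centromere, each full flank was above the genome mean and above its cluster in all 4 libraries. For comparison, a window over the clustered protocadherin genes, cell adhesion genes expressed mainly in neurons, had 0.304 and 0.313 CPM per kb in the DPF2 libraries, against 0.271 and 0.284 in the H3K14cr libraries. A window at the beta globin locus, of 120 tiles, had 0.322 and 0.340 CPM per kb for DPF2 and 0.381 and 0.369 for H3K14cr.

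**Figure D1:**
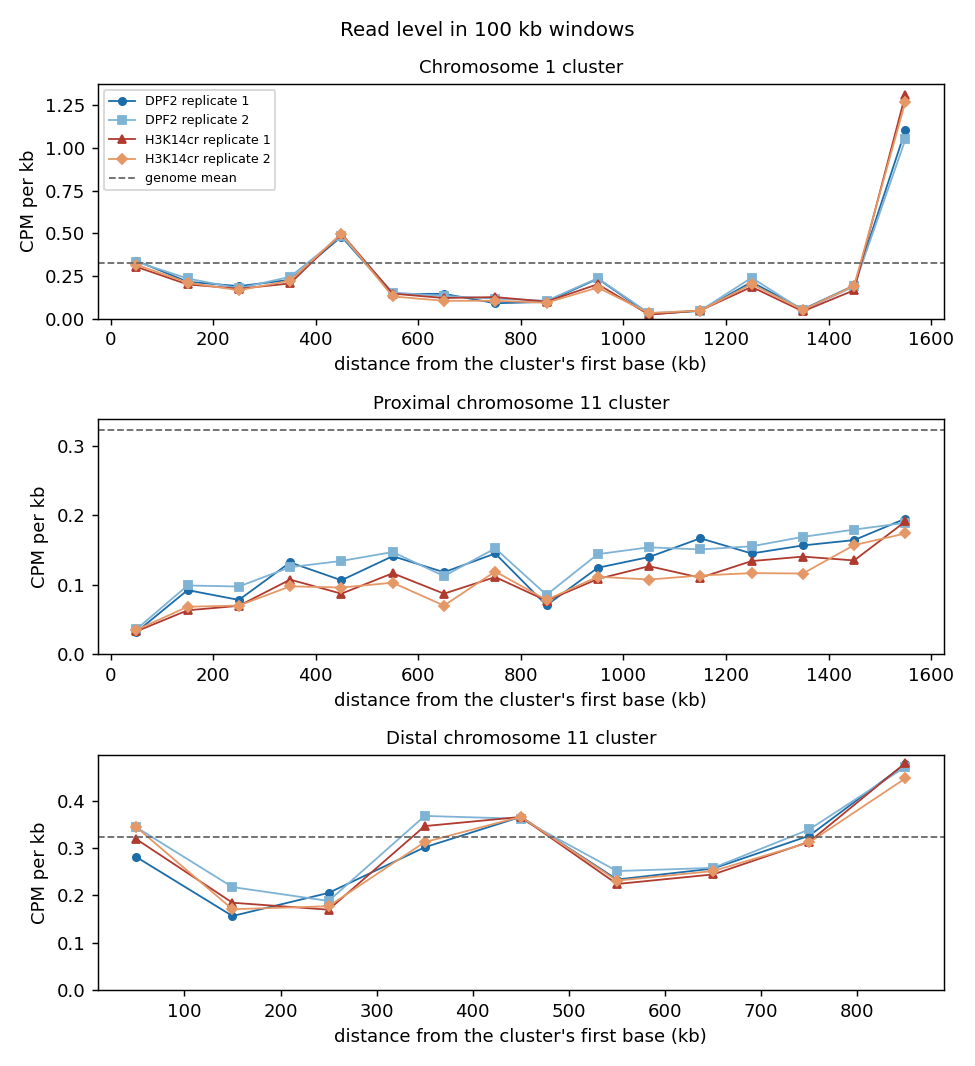
Read level in each 100 kb window of the 3 clusters (CPM per kb, vertical axis, from 0 and with its own range in each panel) against distance from the cluster's first base (kb), 1 line per library; the dashed line is the genome mean of 0.323. The last chromosome 1 window stands above 1 CPM per kb in every library, and all 16 proximal chromosome 11 windows lie under the genome mean.

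Within the clusters, levels were uneven at the scale of 100 kb, and the 4 libraries followed the same course. The highest window was chr1:249100001-249200000, with 1.10 and 1.05 CPM per kb in the DPF2 libraries, against 1.31 and 1.27 in the H3K14cr libraries. Among the 27481 genome windows of 100 kb in which at least 50 tiles held a read, it stood at percentile 98.6 and 98.3 for DPF2 and 98.9 and 98.7 for H3K14cr, ranked by level over tiles with a read. This 1 window of 16 held 29.1% and 27.5% of the cluster's reads in the DPF2 libraries, against 34.1% and 33.3% in the H3K14cr libraries. The data thus go against calling the whole chromosome 1 window background.

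A second, lower rise lay at chr1:248000001-248100000, with 0.480 and 0.486 CPM per kb for DPF2 and 0.498 and 0.497 for H3K14cr. The lowest chromosome 1 window, chr1:248600001-248700000, had 0.0257 and 0.0315 CPM per kb for DPF2 and 0.0230 and 0.0322 for H3K14cr, with reads in 33 of its 100 tiles. The chromosome 1 cluster also held the 3 longest stretches without a read in any library. The longest was 152 kb at chr1:248909001-249061000, followed by 18 kb at chr1:248665001-248683000 and 17 kb at chr1:248647001-248664000. In the chromosome 11 clusters the longest such stretch was 8 kb (proximal) and 3 kb (distal). What these stretches hold was not tested, because no hg19 sequence was used.

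In the proximal chromosome 11 cluster the lowest window was its first, chr11:55000001-55100000, with 0.0321 and 0.0360 CPM per kb for DPF2 and 0.0331 and 0.0351 for H3K14cr. The highest was its last, chr11:56500001-56600000, with 0.195 and 0.189 for DPF2 and 0.191 and 0.174 for H3K14cr. All 16 windows stood under the median window of the genome in every library. The median of their percentiles was 15.8 and 16.1 for DPF2 and 13.8 and 12.3 for H3K14cr, and no window passed percentile 32.4. In the distal cluster the lowest window by the mean of the 4 libraries was chr11:123700001-123800000, with 0.157 and 0.218 CPM per kb for DPF2 and 0.185 and 0.171 for H3K14cr. The next window, chr11:123800001-123900000, was lower in DPF2 replicate 2, at 0.188, and in H3K14cr replicate 1, at 0.170. Its highest was chr11:124400001-124500000, with 0.478 and 0.472 for DPF2 and 0.480 and 0.447 for H3K14cr. The distal windows had a median percentile of 49.9 and 56.4 for DPF2 and 55.4 and 55.0 for H3K14cr, so they were ordinary windows of this genome by read level.

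Spread was measured as the variance over the mean of reads per tile, which is 1 when reads fall at random at an even rate (Poisson), over tiles with a read in any library. It was above 1 in every cluster and library. In the proximal chromosome 11 cluster it was 1.63 and 2.35 for DPF2 and 1.86 and 2.62 for H3K14cr, the lowest of the 3. The distal cluster had 2.61 and 4.01 for DPF2 and 4.59 and 6.66 for H3K14cr. In the chromosome 1 cluster it was 5.28 and 7.32 for DPF2 and 9.50 and 13.7 for H3K14cr, above the genome's 4.65 and 6.55 for DPF2 and 7.04 and 10.3 for H3K14cr. Within each antibody, the deeper library had the higher value in all 3 clusters.

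Because this ratio grows with depth, the excess was also given relative to the squared mean: (variance minus mean) over the mean squared, which depth does not raise by itself. Tiles without a read in any library were left out here too, 267 of 1600 in the proximal and 55 of 900 in the distal cluster. Over all tiles this excess was not computed, so the values below do not rank these 2 clusters. In the proximal cluster the excess was 0.536 and 0.631 for DPF2 and 0.621 and 0.762 for H3K14cr. Distal values on this scale were 0.672 and 0.683 for DPF2 and 1.05 in both H3K14cr libraries. In the chromosome 1 cluster they were 1.69 and 1.45 for DPF2 and 2.37 and 2.23 for H3K14cr, against 1.22 and 1.08 for DPF2 and 1.44 and 1.39 for H3K14cr in the genome. On this scale the antibodies did not overlap in the distal and chromosome 1 clusters, where H3K14cr was the more uneven, and overlapped in the proximal one. Without its last 100 kb the chromosome 1 cluster had 1.04 and 0.875 for DPF2 and 1.18 and 1.13 for H3K14cr, below the genome in all 4 libraries.

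The excess lay at both ends of the distribution. In the proximal cluster, 39.7% and 23.5% of tiles had no read in the DPF2 libraries, against 30.9% and 11.9% under Poisson at the same mean, and 36.2% and 26.9% in the H3K14cr libraries, against 24.96% and 11.9%. Tiles with 10 reads or more were rare there: 1 and 17 of 1333 for DPF2, and 1 and 19 for H3K14cr. Distal tiles of this kind made up 1.42% and 11.01% for DPF2 and 5.80% and 17.2% for H3K14cr, against Poisson shares of 0.0202% and 1.52%, and 0.276% and 4.74%. In the chromosome 1 cluster they were 4.44% and 11.7% for DPF2 and 7.17% and 17.9% for H3K14cr, against 0.0301% and 1.38%, and 0.387% and 6.29%.

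**Figure D2:**
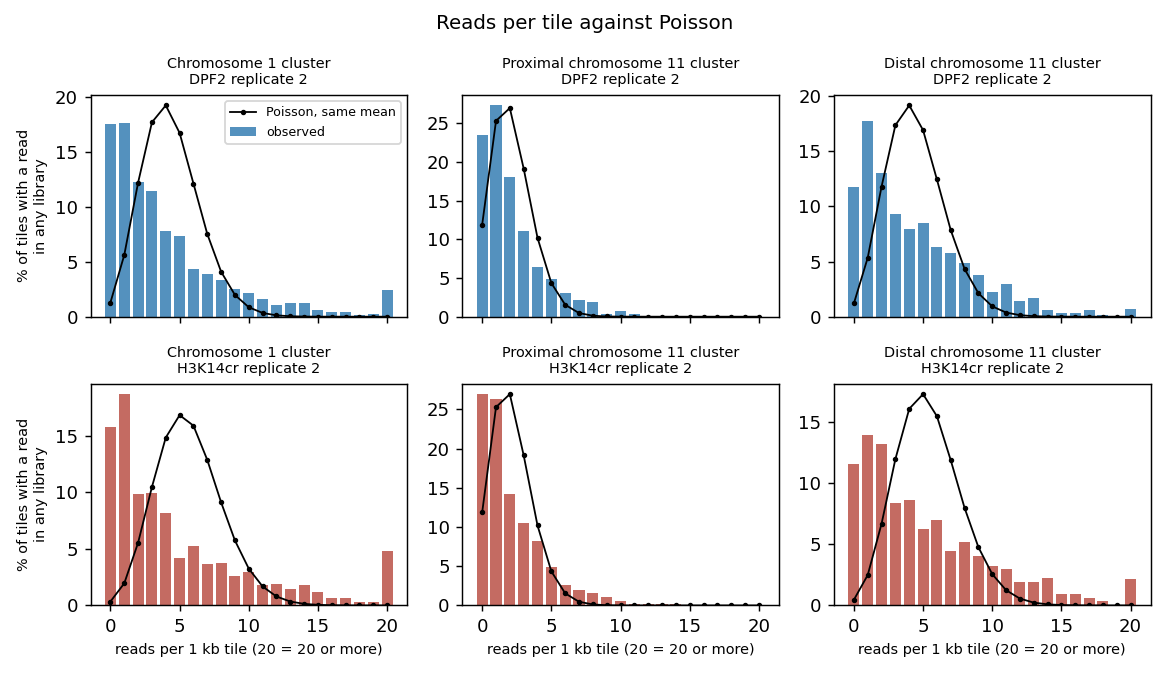
Share of tiles (%, vertical axis) by reads per 1 kb tile (horizontal axis, 20 standing for 20 or more) in the deeper library of each antibody, DPF2 above and H3K14cr below, with 1 column per cluster; bars are observed and the line is Poisson at the same mean. In each panel the bars exceed the line at 0 reads and at high reads.

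An excess over Poisson remained without the enriched tiles described below. With tiles enriched in any library and 2 tiles on each side left out, the ratio was still 1.58 and 2.12 for DPF2 and 1.76 and 2.31 for H3K14cr in the proximal cluster, and 2.18 and 3.28 for DPF2 and 2.90 and 3.94 for H3K14cr in the distal cluster. In the chromosome 1 cluster it fell to 3.11 and 4.36 for DPF2 and 4.43 and 6.28 for H3K14cr. The genome without such tiles had 3.26 and 4.76 for DPF2 and 5.08 and 7.44 for H3K14cr.

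At 1 kb, the uneven pattern was largely shared between libraries. As a description over tiles of the same regions, the covariance of reads per tile relative to the product of the means was 0.609 within DPF2 and 0.767 within H3K14cr in the proximal cluster, and 0.607 to 0.687 for the 4 pairs of different antibodies. Values for different antibodies thus overlapped those for the same antibody there. Distal values were 0.678 and 1.05 for the same antibody, and 0.802 to 0.823 for different antibodies. In the chromosome 1 cluster they were 1.59 and 2.28, and 1.71 to 1.92. Chi-square per degree of freedom between antibodies over 1 kb tiles lay between 0.949 and 1.05 in the proximal cluster. In the distal cluster it was 1.06 to 1.16, and in the chromosome 1 cluster 1.07 to 1.17. Over the 41 cluster windows of 100 kb, where more reads stand behind each value, it was 2.002 to 3.93 between antibodies, against 0.977 within DPF2 and 0.934 within H3K14cr, so the antibodies did differ at that scale. What sets the shared pattern was not tested.

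At the resolution of the files, 100 bp bins, most listed bins held a single read. Their share in the proximal cluster was 89.2% and 81.0% for DPF2 and 87.0% and 79.5% for H3K14cr. The highest bin there held 4 and 5 reads for DPF2 and 4 and 6 for H3K14cr. The highest distal bin held 5 and 7 reads for DPF2 and 9 and 14 for H3K14cr, and in the chromosome 1 cluster 10 and 15 for DPF2 and 12 and 17 for H3K14cr.

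Sites were looked for with a one-sided Poisson test of each tile against the mean of the tile and 10 kb on each side, or against the larger of that mean and the chromosome mean. A tile was called for an antibody when, in both libraries, its p adjusted by Benjamini-Hochberg over all tiles of the genome did not exceed 0.001 and its fold reached 3. Against the larger mean, 4 tiles of the clusters were called for DPF2 (0.119% of 3349) where the genome had 0.159%, and 10 for H3K14cr (0.299%) where the genome had 0.341%. Against the local mean alone the counts were 6 for DPF2 (0.179%) where the genome had 0.169%, and 16 for H3K14cr (0.478%) where the genome had 0.37%. The clusters together thus held called tiles at about the share of the genome, and were not free of them. Since reads in tiles outside the called ones are also spread more widely than Poisson, the test's p-values are too small, and p-values of the same tile in libraries of 1 antibody are not a check by separate samples.

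The clusters differed in where these tiles lay. Against the larger mean, 3 of the DPF2 and 6 of the H3K14cr calls were in the chromosome 1 cluster, and 1 and 4 in the distal cluster. The proximal cluster had 0 calls of 1333 tiles for both antibodies by the Poisson test, also in each single library, with 2 tiles at an unadjusted p under 0.05 in both DPF2 libraries and 2 in both H3K14cr libraries. If tiles were independent, a count of 0 would allow a share of up to 0.225%, which includes the genome's share for DPF2 and not that for H3K14cr. Over tiles with a read, however, this cluster lay at 0.386 (DPF2) and 0.307 (H3K14cr) of the chromosome mean. A call against the larger mean was therefore hard to reach here, and no shortage of sites was shown. Against the local mean alone, the proximal cluster had 1 call for DPF2 and 0 for H3K14cr, with 40 and 58 tiles at an unadjusted p under 0.05 in both libraries. Counting calls in a single library, 11 tiles were called in DPF2 replicate 2 against 5 in DPF2 replicate 1 over the larger mean. Called under either background, 17 tiles were found in all, 5 of them for both antibodies. Genome shares were not taken for the unadjusted, single-library and shared counts, so those counts are descriptions only.

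The last 100 kb of the chromosome 1 cluster held 3 of its 4 DPF2 calls and 5 of its 11 H3K14cr calls. At chr1:249132001-249133000 the DPF2 libraries had 41 and 62 reads (5.26 and 4.66 CPM) and the H3K14cr libraries 62 and 74 reads (5.70 and 4.26 CPM). These were 5.04 and 4.23 times the local mean for DPF2 and 3.74 and 3.18 times for H3K14cr, and the ratio of DPF2 to H3K14cr was 1.01 (0.777 to 1.32). Both antibodies were thus high on this tile, without a difference beyond counting error.

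The tile at chr1:249120001-249121000 was called for both antibodies as well, with 41 and 54 reads for DPF2 and 40 and 69 for H3K14cr, a ratio of 1.17 (0.877 to 1.55). So was chr1:249167001-249168000, with 29 and 41 reads for DPF2 and 38 and 74 for H3K14cr, a ratio of 0.837 (0.612 to 1.14). In contrast, chr1:249152001-249153000 was called for H3K14cr alone, with 25 and 36 reads (3.21 and 2.70 CPM) for DPF2 and 79 and 115 reads (7.26 and 6.62 CPM) for H3K14cr. It was the highest tile of all clusters for H3K14cr, at 3.95 and 3.49 times its local mean, against 2.16 and 1.81 for DPF2. The ratio of DPF2 to H3K14cr was 0.421 (0.310 to 0.564), an interval below 1. Calls for 1 antibody only do not show a difference by themselves, and this interval treats each read as an independent molecule. The tile was also picked by its H3K14cr reads, which enter the ratio and lower it, so the interval is no separate test of a difference.

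Another tile of that window, chr1:249184001-249185000, had 17 and 16 reads for DPF2 and 34 and 44 for H3K14cr and was called for H3K14cr. Elsewhere in the chromosome 1 cluster, chr1:248020001-248021000 had 16 and 33 reads for DPF2 and 38 and 61 for H3K14cr, at 3.93 and 3.86 times the local mean for H3K14cr, and was called for H3K14cr under both backgrounds. It lay in the second rise of the cluster. The tile chr1:248100001-248101000 was called for both antibodies against the local mean alone, with 16 and 21 reads for DPF2 and 13 and 20 for H3K14cr. Of the remaining chromosome 1 calls, chr1:248059001-248060000, chr1:248071001-248072000, chr1:248411001-248412000 and chr1:248512001-248513000 were made for H3K14cr against the local mean alone. They held 4 to 12 reads in each DPF2 library and 11 to 25 in each H3K14cr library, so they rest on few reads.

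In the distal cluster, adjoining tiles near the start were called. At chr11:123612001-123613000 the DPF2 libraries had 19 and 36 reads (2.44 and 2.70 CPM) and the H3K14cr libraries 36 and 58 reads (3.31 and 3.34 CPM), called for both antibodies, at 4.34 and 3.67 times the local mean for DPF2 and 4.75 and 4.53 times for H3K14cr. Its neighbour chr11:123611001-123612000, with 15 and 32 reads for DPF2 and 30 and 60 for H3K14cr, was called for H3K14cr. Together they made the only merged site longer than 1 kb among the clusters' calls.

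Near the far end, chr11:124492001-124493000 had 21 and 27 reads for DPF2 and 52 and 66 for H3K14cr and was called for H3K14cr. Its ratio of DPF2 to H3K14cr was 0.544 (0.381 to 0.768), but the reads behind the call enter that ratio too. The tile chr11:124351001-124352000 had 9 and 15 reads for DPF2 and 17 and 27 for H3K14cr. It was called for H3K14cr, while its neighbour chr11:124352001-124353000, with 11 and 23 reads for DPF2 and 13 and 34 for H3K14cr, had the highest fold over the local mean for DPF2 in this cluster, at 5.92 and 6.04, and was called for neither antibody. The other H3K14cr call of this cluster, chr11:124147001-124148000, was made against the local mean alone, with 6 and 17 reads for DPF2 and 21 and 21 for H3K14cr. The other 3 tiles named for their folds in this cluster held 4 to 10 reads in each DPF2 library and 3 to 17 in each H3K14cr library, and none was called.

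In the proximal cluster the single call, chr11:56143001-56144000, was for DPF2 against the local mean alone. It had 11 and 11 reads for DPF2 and 6 and 12 for H3K14cr, at 10.5 and 7 times the local mean for DPF2 and 5.25 and 6.30 times for H3K14cr. The ratio of DPF2 to H3K14cr was 1.64 (0.838 to 3.24), which includes 1, so it was not shown to differ between antibodies. The H3K14cr tile with the highest fold here, chr11:55624001-55625000, had 4 and 11 reads for DPF2 and 5 and 10 for H3K14cr, at 8.75 and 9.13 times the local mean for H3K14cr. The other 7 tiles named for their folds in this cluster held 0 to 10 reads in each DPF2 library and 0 to 9 in each H3K14cr library, and none was called.

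On chromosome 1, the highest folds over the local mean stood on 0 to 2 reads per library. The tiles with the highest fold for DPF2, chr1:248742001-248743000 and chr1:248808001-248809000, had 1 and 2, and 2 and 2 reads in the DPF2 libraries, against 0 and 0, and 0 and 1 in the H3K14cr libraries. For H3K14cr, chr1:248646001-248647000 and chr1:248728001-248729000 had 0 reads in both DPF2 libraries and 1 read in each H3K14cr library, at folds of at least 7. All 4 lie within 10 kb of a stretch of 6 kb or more without reads, and none of the 4 was called. The other 5 uncalled tiles named for their folds on chromosome 1 held 1 to 14 reads in each DPF2 library and 1 to 15 in each H3K14cr library. Of 775 protocadherin tiles with a read, 0 were called for DPF2 and 1 for H3K14cr (0.129%) against the larger mean. Of 107 beta globin tiles, 0 were called for both. Against the local mean alone, H3K14cr had 2 calls (0.258%) and 1 call (0.935%) in these windows, and DPF2 had 0. Genome shares for H3K14cr were 0.341% and 0.37% against the 2 backgrounds, and such small counts do not set these windows apart.

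Between antibodies, the proximal chromosome 11 cluster had the widest difference in level of the 3 clusters, higher for DPF2 after scaling to library totals. Its ratio of DPF2 to H3K14cr over all reads was 1.26 (1.21 to 1.31), against 0.995 (0.967 to 1.02) in the chromosome 1 cluster, 1.04 (1.003 to 1.075) in the distal cluster, 1.11 (1.07 to 1.15) over the protocadherin genes and 0.892 (0.816 to 0.974) at beta globin. In 100 kb windows tested with limma across the whole genome, 12 of 41 cluster windows were higher in DPF2 at an adjusted p of at most 0.05, where 26.3% of 27951 genome windows were, and 1 was higher in H3K14cr, where 12.6% were. The share higher in DPF2 was close to that of the genome. By cluster, 3 of 16 windows on chromosome 1, 9 of 16 in the proximal and 0 of 9 in the distal cluster were higher in DPF2. The count of 12 was 5 with median-of-ratios factors, 7 with TMM factors and, in limma without the filter on low windows, 0, where 9 cluster windows had an unadjusted p under 0.05. It was 7 without DPF2 replicate 2, 7 without H3K14cr replicate 1 and 4 without H3K14cr replicate 2, with 5, 5 and 4 of these in the proximal cluster. In the distal cluster 0 windows had an unadjusted p under 0.05 in limma, and 0 passed edgeR's quasi-likelihood test, while without DPF2 replicate 1 it had 1 window higher in DPF2 and without DPF2 replicate 2 it had 1 higher in H3K14cr. These p-values measure the spread between libraries that differ by no more than sampling noise, so they compare these preparations and not the antibodies in general.

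The largest differences were in the proximal cluster. At chr11:55600001-55700000 the DPF2 libraries had 11.8 and 11.3 CPM per window and the H3K14cr libraries 8.73 and 7.02, a log2 difference of 0.53 (SE 0.13, limma adjusted p = 0.00111). At chr11:55100001-55200000 they had 9.25 and 9.91 CPM for DPF2 and 6.34 and 6.85 for H3K14cr, a log2 difference of 0.51 (SE 0.14, limma adjusted p = 0.00310). At chr11:56100001-56200000, the window of the single proximal call, they had 16.7 and 15.1 CPM for DPF2 and 11.03 and 11.34 for H3K14cr, a log2 difference of 0.49 (SE 0.11, limma adjusted p = 4.9e-04). The libraries of the antibodies did not overlap in any of these 3. The first of them lost its call without H3K14cr replicate 2, at 0.38, the second without H3K14cr replicate 1, at 0.45, and all 3 lost it without the filter on low windows. The 1 window higher in H3K14cr was chr1:249100001-249200000, with 110.4 and 105.0 CPM for DPF2 and 131.2 and 127.2 for H3K14cr, a log2 difference of -0.26 (SE 0.04, limma adjusted p = 6.34e-07).

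The size of the difference went with the level of the window in the whole genome. With the 27951 windows put in 10 groups of rising level, medians of the log2 difference (DPF2 minus H3K14cr) were 0.25, 0.27, 0.24, 0.20, 0.14, 0.08, 0.03, -0.02, -0.08 and -0.15. Of the proximal windows, 5, 8, 2 and 1 fell into the lowest 4 groups, and their median difference was 0.32. The chromosome 1 windows had a median of 0.10 and the distal ones 0.05, against 0.09 over all windows. The last chromosome 1 window belonged to the highest group. The proximal median of 0.32 thus stood beside medians of 0.25 and 0.27 for genome windows of similar level, and whether it exceeds them was not tested. Scaling by median-of-ratios or TMM factors lowered the median of all windows to 0.01 and 0.02 and left the proximal median at 0.24 and 0.25, while the distal median turned to -0.02 under both.

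**Figure D3:**
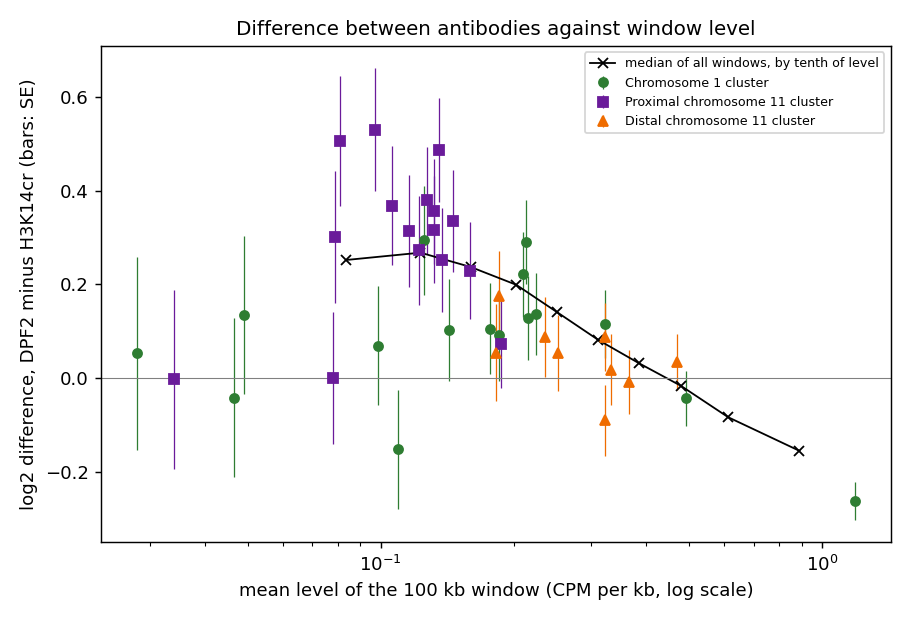
Log2 difference of DPF2 minus H3K14cr (vertical axis, bars are the SE of the limma fit) against the mean level of the window (CPM per kb, log scale) for the 41 cluster windows; crosses joined by a line are medians of all 27951 windows in 10 groups of rising level. The line falls from 0.25 at the lowest levels to -0.15 at the highest, the proximal windows lie at its low end, and the last chromosome 1 window lies lowest.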

How the data were processed

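Signal was measured in 4 ChIP-seq libraries of K562 cells, with group and replicate number taken from the titles. The submitters' processing notes name Bowtie2 and the builds hg19 and mm9; the version, the binning tool, mapping filters and duplicate handling are not given in sources used here. Coordinates were read as hg19. As deposited, signal is listed for each 100 bp bin that has reads, scaled by the authors to 10000000 reads per library, with 2 decimals. Dividing by the value of 1 read gave whole reads within 0.006 signal units for all values but 0, 0, 0 and 3 in DPF2 replicates 1 and 2 and H3K14cr replicates 1 and 2 (100% whole after rounding).

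Bins were assigned to 1 kb tiles by midpoint on 24 chromosomes, and CPM is signal divided by 10. Without molecular identifiers, reads cannot be taken as independent molecules, so 95% intervals (exact Poisson for levels, exact binomial for ratios of pooled reads) cover counting error only. Windows of 100 kb with a mean of at least 10 reads entered a limma fit with trend on log2(CPM + 0.5), which understates the difference of low windows. Because whole reads were recovered, edgeR's quasi-likelihood test on those reads was an alternative. It called 15 cluster windows higher in DPF2 and 1 higher in H3K14cr. The replicate numbers did not pair the libraries, and nothing in the labels names separate cultures. The Poisson test and limma were also run on simulated Poisson counts. Those are less spread than the reads here, so the simulations do not show how many calls are false. Tiles and windows were named by rule: each call, the 5 tiles with the highest fold over the local mean per cluster and antibody (uncalled ones in part as ranges), the highest and lowest window of each cluster, the 3 largest window differences per direction, and the 3 longest stretches without reads. The windows, lists and tests were chosen with earlier results of these data known. RefSeq promoter sequences of GRCh38.p14 were matched by gene identifier. Tools were limma 3.58.1 and edgeR 4.0.16 under R 4.3.3, and scipy 1.17.1, numpy 2.4.6 and matplotlib 3.10.9 under Python 3.11.15.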

Additional observations from a re-analysis of the deposited data

How the results depend on the processing

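Levels relative to the genome mean, given for DPF2 and then H3K14cr, stayed below 1 in the chromosome 1 and proximal chromosome 11 clusters under every alternative run. Over tiles with a read they were 0.846 and 0.851 (chromosome 1) and 0.831 and 0.809 (distal). Against the genome's median tile with a read they were 0.860 and 0.851 (chromosome 1), 0.466 and 0.370 (proximal) and 1.08 and 1.04 (distal). This sets a mean against a median, so it does not place the distal cluster above the middle tile. The distal median tile with a read held 2 and 3 reads for DPF2 and 2 and 4 for H3K14cr. In the genome it held 2 and 4, and 3 and 5. Against a mean without the top 0.1% of tiles and chromosomes 9 and 22 the levels were 0.749 and 0.759 (chromosome 1) and, for H3K14cr, 0.925 (distal). Without the last 100 kb, chromosome 1 had 0.564 and 0.525. Variance over mean stayed above 1 under every alternative. It was 34.0 and 65.2 (chromosome 1), 3.88 and 4.78 (proximal) and 9.69 and 16.1 (distal) in 10 kb tiles, and 1.70 and 2.32, 1.18 and 1.25, and 1.37 and 1.68 in 100 bp bins. Without the highest 1% of tiles it was 4.26 and 6.19 (chromosome 1) and, for H3K14cr, 3.57 (distal). Without the last 100 kb of chromosome 1 it was 3.52 and 4.87. Without enriched tiles and 2 tiles on each side it was 3.73 and 5.35 (chromosome 1) and, for H3K14cr, 3.42 (distal). The 3 alternatives that leave out the last 100 kb or the enriched tiles, and the 2 local means below that leave out the own tile or tiles without reads, were chosen after seeing the data.

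Counts of enriched tiles, reported as 4 for DPF2 and 10 for H3K14cr against the larger mean and as 6 and 16 against the local mean alone, moved most. At a fold of at least 5 they were 0 and 0, and 2 and 3. At an adjusted p of at most 0.05 there were 7 for DPF2 against the larger mean, and 14 and 34 against the local mean. With a local mean over 10 kb there were 2 for H3K14cr against the larger mean, and 3 and 5 against the local mean. In 2 kb tiles they were 0 and 3, and 1 and 6. With the libraries of an antibody summed there were 12 for DPF2 against the larger mean, and 53 and 85 against the local mean. With 1 library left out and calls taken from the other, DPF2 had 5 to 11 and 8 to 25, and H3K14cr 13 to 14 and 20 to 41. A local mean without the own tile gave 5 and 10, and 8 and 17, and one over tiles with a read 4 and 10, and 6 and 13. The cause of these moves was not tested.

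Cluster windows higher in DPF2 numbered 12 as reported, 5 with median-of-ratios factors, 7 with TMM factors, and 4 to 13 with each library left out in turn. Without a filter on low windows limma gave 0 and 0, with 9 cluster windows at an unadjusted p under 0.05 and windows that hold no reads included in the fit. Windows higher in H3K14cr numbered 1 as reported, 2 in 50 kb windows, and 1 to 2 with each library left out. With the replicate number as a block the counts were 12 and 1, and the block changed no call among the cluster windows. Same-numbered libraries did not deviate together (correlation 0.015 over 27951 windows). None of the 13 called windows changed direction under the 11 alternatives fitted on 100 kb windows, but calls were lost in 45 of 143 cases: 13 without the filter, 8 without H3K14cr replicate 2, 7 with median-of-ratios factors, 5 each with TMM factors, without DPF2 replicate 2 and without H3K14cr replicate 1, and 2 without DPF2 replicate 1. Where a library left out leaves 1 for an antibody, that library is assumed to vary like the other pair. Depth limits the proximal cluster most, where a tile with a read held 1.17 to 2.13 reads on average.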
